A study of Mus musculus with 6 samples.

Results

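Small Cajal body RNAs (scaRNAs, named Scarna in the annotation) were followed through 4 libraries of read pairs made with MARIO, a method that joins RNAs held by the same protein in cells through a linker and sequences both sides as RNA1 and RNA2. A read pair belonged here if the deposited name of RNA1 or of RNA2 had a gene symbol starting with Scarna, in either case of letters. Lines with equal coordinates of both fragments were collapsed to 1, which left 21885 scaRNA read pairs of 5581375 read pairs in all. The authors had already removed lines with equal places and an equal random barcode, so lines collapsed here can stem from different molecules. Collapsing is therefore the strict count. A line with the name SCARNA21 but without a gene identifier, 1 in all, did not meet the rule.

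ES-1 and ES-2 are independent assays on E14 mouse embryonic stem (ES) cells of strain 129/Ola, cross-linked with ultraviolet light of 254 nm. ES indirect came from the same cell line but was cross-linked with formaldehyde and EGS, agents that also tie proteins to each other, and was broken by sonication. MEF came from embryonic fibroblasts of C57Bl/6 mice and was cross-linked at 254 nm. No library carried a gene edit or a drug treatment according to the labels. The first fragmentation aimed at about 1000 nt for ES cells and 300 nt for MEF by the labels. To remove ribosomal RNA, a duplex-specific nuclease was used on ES-1 and on ES indirect, whereas ES-2 and MEF went through the GeneRead kit, so ES-2 differed from ES-1 in depletion, ES indirect from ES-1 in cross-linking and breakage, and MEF from ES-2 in cell type, strain and fragment size. By the study's methods ES-1 was also digested to a wider range, with longer fragments, than ES-2. Factors that changed together in a comparison cannot be told apart. Among these libraries ES is the only group with 2 samples, and E14 is 1 cell line. No difference between groups was tested, and intervals cover counting error only, at the 95% level.

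The Cajal body is a compartment of the nucleus in which small nuclear RNAs (snRNAs), the RNA cores of the splicing machinery, are matured. A scaRNA base-pairs with an snRNA and places an enzyme over the base to be changed, with C/D box scaRNAs guiding ribose methylation and H/ACA box scaRNAs guiding pseudouridylation. Many animal scaRNAs are cut out of the introns of longer transcripts, and a CAB box in H/ACA scaRNAs binds the protein Wrap53, which brings them to the Cajal body. By textbook knowledge, Scarna2, Scarna8, Scarna9 and Scarna13 act on U2, Scarna10 on U5, SCARNA16 on U1 and Scarna17 on U4 and U12.

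The sequences of Scarna2, Scarna9 and Scarna8, which had read pairs with U2, and of U2 are printed first. They run 5′ to 3′ on the strand of the gene, from the NCBIM37 (mm9) genome. Scarna2 is shown for the stretch that held all of its U2-ligated fragments in ES indirect (bases 72 to 351 of the gene, chr3:108357319-108357598, minus strand). Scarna9 lies at chr9:15130708-15130777 on the minus strand and Scarna8 at chr4:86232357-86232487 on the minus strand. The U2 shown is the copy at chr11:101507054-101507244 on the minus strand, to which U2 fragments were aligned. Capitals in Scarna2 and Scarna9 mark the longest run that can pair with this U2 in Watson-Crick fashion, 10 bases in each. Capitals in U2 mark bases 22 to 36, which face both runs. Capitals in Scarna8 mark the bases that every U2-ligated fragment of ES indirect held.
Scarna2: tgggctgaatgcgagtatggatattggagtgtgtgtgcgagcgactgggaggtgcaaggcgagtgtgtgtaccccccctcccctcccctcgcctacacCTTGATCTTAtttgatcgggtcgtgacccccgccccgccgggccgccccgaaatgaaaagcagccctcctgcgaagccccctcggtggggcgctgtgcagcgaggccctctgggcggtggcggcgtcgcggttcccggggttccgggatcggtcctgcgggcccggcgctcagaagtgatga
Scarna9: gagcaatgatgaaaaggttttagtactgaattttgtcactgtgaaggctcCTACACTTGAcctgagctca
Scarna8: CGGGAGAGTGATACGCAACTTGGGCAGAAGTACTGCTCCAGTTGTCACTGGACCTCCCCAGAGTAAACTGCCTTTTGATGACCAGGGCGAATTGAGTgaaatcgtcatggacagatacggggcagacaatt
U2: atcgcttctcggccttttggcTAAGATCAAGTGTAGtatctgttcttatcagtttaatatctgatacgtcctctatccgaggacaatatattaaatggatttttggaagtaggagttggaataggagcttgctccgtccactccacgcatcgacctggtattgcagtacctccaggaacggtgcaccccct

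SCARNA6 had the most read pairs with U1, and its pair with Scarna6, a different gene in spite of the name, was called in ES-1. They lie in introns of Atg16l1, at chr1:89673513-89673784 and chr1:89681131-89681395 on the plus strand. Capitals in SCARNA6 mark its longest run that can pair with U4 (bases 254 to 264), and capitals in Scarna6 the longest that can pair with U5 (bases 14 to 23). SCARNA15 (chr3:88497852-88497979, plus strand) and Snord89 (chr1:39605590-39605699, minus strand) are shown because their contact was called in both ES assays. Capitals mark the longest run that can pair between them, 8 bases.
SCARNA6: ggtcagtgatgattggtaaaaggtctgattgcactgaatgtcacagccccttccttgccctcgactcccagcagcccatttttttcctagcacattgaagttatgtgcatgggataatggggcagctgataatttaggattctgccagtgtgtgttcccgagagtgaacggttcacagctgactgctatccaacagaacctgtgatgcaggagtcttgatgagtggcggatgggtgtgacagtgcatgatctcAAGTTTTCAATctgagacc
Scarna6: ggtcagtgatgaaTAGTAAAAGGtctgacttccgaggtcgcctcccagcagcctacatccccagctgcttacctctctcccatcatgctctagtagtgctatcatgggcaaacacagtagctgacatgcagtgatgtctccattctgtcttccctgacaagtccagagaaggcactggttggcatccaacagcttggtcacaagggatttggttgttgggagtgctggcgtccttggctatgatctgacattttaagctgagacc
SCARNA15: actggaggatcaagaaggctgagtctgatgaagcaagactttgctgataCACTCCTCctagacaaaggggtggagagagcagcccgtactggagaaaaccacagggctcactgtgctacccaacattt
Snord89: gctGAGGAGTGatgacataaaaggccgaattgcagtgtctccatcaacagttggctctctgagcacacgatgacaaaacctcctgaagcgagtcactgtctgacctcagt

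The annotation holds 2 SCARNA14 genes whose names stood together in read pairs of every library of ES cells, one at chr9:64143738-64143872 on the plus strand within an intron of Tipin and one at chr2:51349173-51349302 on the minus strand. Capitals mark the longest run that is identical in both, 65 bases.
SCARNA14 on chromosome 9: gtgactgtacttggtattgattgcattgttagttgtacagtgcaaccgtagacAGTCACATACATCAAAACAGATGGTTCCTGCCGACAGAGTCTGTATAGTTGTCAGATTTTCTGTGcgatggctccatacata
SCARNA14 on chromosome 2: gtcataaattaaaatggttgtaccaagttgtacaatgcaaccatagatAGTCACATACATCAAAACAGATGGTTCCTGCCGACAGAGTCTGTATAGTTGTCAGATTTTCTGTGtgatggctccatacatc

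The libraries were checked first. The 8 ES cell markers (Pou5f1, Nanog and others) together had 904 ends in ES-1 against 655 ends of the 8 fibroblast markers (Col1a1, Vim and others). ES-2 had 418 against 282, ES indirect 2324 against 480 and MEF 44 against 464. Marker sums therefore went with the labels. Most fibroblast ends in ES cells were of Fn1, a matrix protein gene, which gave 588 of the 655 in ES-1, 243 of the 282 in ES-2 and 435 of the 480 in ES indirect, against 85 of the 464 in MEF. As a share of non-ribosomal ends Fn1 lay higher in every library of ES cells than in MEF, against the labels. Other fibroblast markers were few in ES cells, with 1 of them at 0 in ES-2 and no other marker at 0. Thy1 also had a higher share in ES-1 (9 ends) and ES-2 (5) than in MEF (2), but not in ES indirect (6). Col1a1, Col1a2, Col3a1 and Vim had a higher share in MEF than in every library of ES cells. So did Postn and S100a4, but on only 5 ends and 1 end in MEF. Every library had been read in 2 sequencing runs, as the read names show. Of the scaRNA ends, 97.3% to 99.8% lay on the strand of the annotated gene, and at least 97.3% matched the genome at the stated place in each position and library. The partner ends matched less often, so that ES-1 had a match of both ends in 93.9% of scaRNA read pairs, ES-2 in 80.7%, ES indirect in 89.3% and MEF in 55.7%. MEF stood apart. A piece of the linker was left in 34.6% of its scaRNA read pairs, against 1.24% to 7.22% in the other libraries.

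Over whole libraries, scaRNAs were best covered in ES-1 and least in ES indirect. ES-1 held 17481 scaRNA read pairs, 0.757% of its 2310134 read pairs (95% Wilson interval 0.746 to 0.768). ES-2 held 2984, or 0.240% of 1241787 (0.232 to 0.249). ES indirect held 984, or 0.0594% of 1655476 (0.0558 to 0.0633), and MEF held 436, or 0.117% of 373978 (0.106 to 0.128). The ES assays differed from each other more than ES-2 differed from MEF, and their mean was 0.499% ± 0.365 (SD, n = 2). The order of ES indirect and MEF held among non-ribosomal read pairs, where ES-1 had a share of 1.92%, ES-2 of 0.656%, ES indirect of 0.106% and MEF of 0.155%. In MEF the share also differed between sequencing runs, at 0.151% in the first and 0.0400% in the second, where 46 scaRNA read pairs were found. ES indirect had 0.0598% and 0.0589%, so in the second run MEF lay lowest. The share of MEF was 0.251% without short fragments and linker pieces and 0.0650% with genome-matching read pairs only. Before collapsing, a scaRNA read pair stood on 2.28 lines in ES-1 against 1.40 over all read pairs, on 1.14 against 1.06 in ES-2, on 2.48 against 1.99 in ES indirect and on 1.00 against 1.27 in MEF. ScaRNA read pairs were thus repeated more often than the rest in ES-1, ES-2 and ES indirect and less often in MEF.

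The annotation holds 43 Scarna genes, of which 35 had a read pair, 25 had at least 10 over the 4 libraries and 24 had a read pair in every library. ES-1 reached 33 genes, ES-2 29, ES indirect 27 and MEF 27. Of the 25 genes with at least 10, 17 lie inside a longer gene on the same strand, 16 of them in an intron of every annotated transcript and SCARNA16 over an exon of the non-coding 2810008D09Rik. The remaining 8, Scarna2 and Scarna13 among them, lie outside longer genes. Genes are compared below by their share of a library, not by level, since longer genes collect more fragments.

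SCARNA6 led ES-1, and Scarna2 led ES-2 and ES indirect. SCARNA6 had 3643 read pairs in ES-1, 453 in the ES-2 assay, 81 in ES indirect and 3 in MEF. It thus took 20.7%, 15.1%, 8.11% and 0.688% of the gene counts of these libraries, where a read pair with both ends in scaRNAs counts for each gene. Scarna13, a guide for U2, had 2914, 386, 124 and 94 read pairs in the same order of libraries, and it was the leading gene of MEF with 21.6%. Scarna2, a guide for U2 with its own promoter, had 2458, 578, 218 and 10, which is 21.8% of ES indirect. Scarna6 had 1350, 262, 93 and 8. SCARNA16, a guide for U1, had 1183, 186, 37 and 54. Scarna10, a guide for U5, had 762, 160, 130 and 7, a share of 13.01% in ES indirect against 4.32% in ES-1.

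MEF gave another profile. SCARNA20 held 9.63% of its gene counts (42 read pairs), Scarna3b 8.26% (36), Scarna3a 7.34% (32) and SCARNA11 5.73% (25). In ES-1 the same genes held 0.499%, 0.732%, 1.11% and 0.454%, and in ES-2 and ES indirect the highest share among them was 2.00%. Over the 25 genes, Spearman's rho of the shares was 0.9498 for the pair of ES assays, 0.902 for ES-1 with ES indirect and 0.887 for ES-2 with ES indirect. With MEF it was 0.258, 0.265 and 0.199. These are descriptions over genes that share length and base composition, not tests. Scarna17 (2 read pairs), Scarna9 (0) and SCARNA17 beside Scarna17 (0) were nearly or fully missing from MEF, but at the depth of MEF a count of 0 allows up to 3 read pairs. MEF also had the shortest fragments, with a median scaRNA end of 36 nt, where ES-1 had 78 nt, ES-2 47 nt and ES indirect 90 nt, and the part of fragment length in the profile was not tested. MEF also stood apart in linker pieces and genome match, as given above, and their part was not tested either. Cell type, strain and fragment size changed together between ES-2 and MEF and cannot be told apart, and no cause of the MEF profile was tested.

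**Figure D1:**
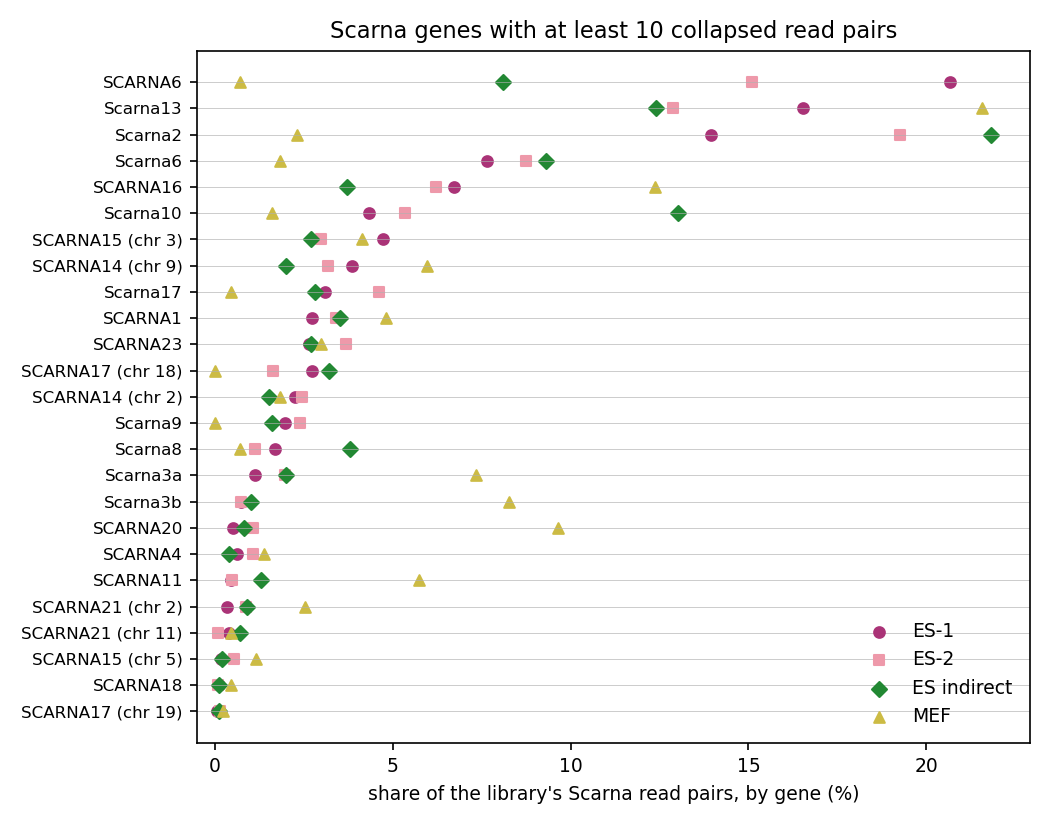
Share of each library's scaRNA gene counts (x axis, percent) held by each of the 25 Scarna genes with at least 10 collapsed read pairs (y axis), 1 point a library. ES-1, ES-2 and ES indirect lie near each other for most genes, while MEF points lie far right for Scarna3a, Scarna3b, SCARNA20 and SCARNA11 (5.73% to 9.63%) and far left for SCARNA6 (0.688%).

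What scaRNAs were ligated to differed by library. In ES-1, 9680 scaRNA read pairs had an end in ribosomal RNA (55.4%, interval 54.6 to 56.1), as did 1458 in ES-2 (48.9%, 47.1 to 50.7). ES indirect had 222 (22.6%, 20.1 to 25.3) and MEF 124 (28.4%, 24.4 to 32.8). Ribosomal ends were common everywhere, in 82.4%, 81.3%, 56.7% and 46.3% of all read pairs in the order ES-1, ES-2, ES indirect, MEF. Both ends lay in the same scaRNA in 12.8% of ES-1 (2231 read pairs), in 238 read pairs of ES-2 (7.98%), in 412 from ES indirect (41.9%) and in 15 from MEF (3.44%). A place without annotation took 4.73%, 9.22%, 5.89% and 19.5%. Another RNA within 2000 bases was the partner in 103, 6, 19 and 0 read pairs. The rest, which joined a scaRNA to another annotated RNA over 2000 bases away, numbered 4641 (26.5%), 1007 (33.7%), 273 (27.7%) and 212 (48.6%).

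**Figure D2:**
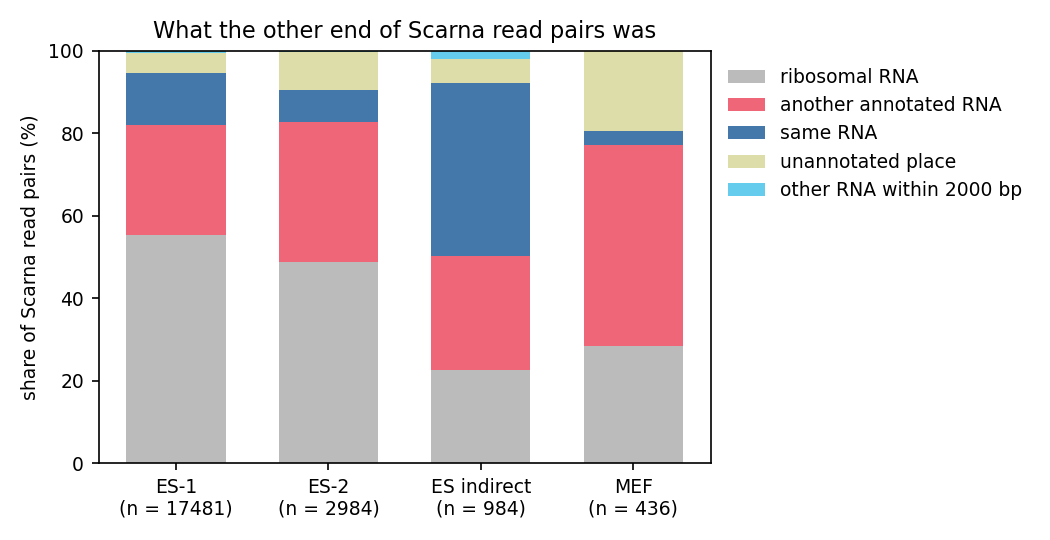
Stacked bars of the share of collapsed scaRNA read pairs (y axis, percent) by what the other end was, for each library (x axis, with its number of read pairs). The band for the same RNA is 12.8%, 7.98%, 41.9% and 3.44% from left to right, and ribosomal RNA takes 55.4%, 48.9%, 22.6% and 28.4%.

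To see which partner types exceeded what abundance alone gives, the partners were set against the number predicted from the RNA1 and RNA2 ends of each library, with pairs within 1 RNA or between neighbours left out. Ribosomal repeats came close to it, at 9486 read pairs against 9941 predicted in ES-1 (ratio 0.954) and 1437 in ES-2 (0.895), but lay below it in ES indirect at 133 (0.723) and above it in MEF at 120 (1.18). RNAs of the deposited type snoRNA (small nucleolar RNA), mostly guides of ribosomal RNA, gave 2494 read pairs in ES-1 (1.10), 262 (1.11) in ES-2, 27 (3.29) after indirect cross-linking and 30 in MEF (1.28). The deposited type holds scaRNAs too, and without Scarna names there were 2435 (1.09), 252 (1.08), 22 (2.72, exact Poisson interval 1.70 to 4.12) and 30 (1.29). Protein-coding genes gave 1327 (1.07), 485 (1.16), 155 (1.41) and 117 (0.867). The snRNAs gave 211 read pairs (1.42), 26 (2.42) and 35 (5.70) in the order of the libraries, with none in MEF. Some types with fewer read pairs had higher ratios, namely misc_RNA (24 in ES-1 at 2.13, then 4 in ES-2 at 3.75) and simple repeats with 23 in ES-1 (1.61). Each snRNA name, as deposited, stood for many loci, since U1 and U2 are encoded by many near-identical copies.

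The contact with snRNAs was then measured among read pairs between different annotated RNAs, without ribosomal ends. ES-1 held 211 scaRNA-snRNA read pairs where 162 were predicted, a ratio of 1.30 (exact Poisson interval 1.13 to 1.49). ES-2 held 26 where 12.5 were predicted (2.08, 1.36 to 3.05), and ES indirect held 35 where 10.01 were predicted (3.50, 2.43 to 4.86). Summed by library, ES had 237 against 175 (1.36, 1.19 to 1.54). MEF held 0 where 0.322 was predicted, so a contact there was not detectable at this depth (upper limit of the ratio 11.5). Over all snRNAs, the snoRNA genes did not show this excess in the ES assays. The Snora genes, which guide pseudouridylation, gave 0.919 in ES-1, 0.786 in ES-2, 0.760 with indirect cross-linking and 1.48 in MEF (49 read pairs). The Snord genes, which guide methylation, gave 0.956, 0.944 and 1.49, the last above 1 (1.26 to 1.75), and in MEF 0 read pairs where 1.51 were predicted. In each library of ES cells the scaRNA interval lay above those of both snoRNA classes, and no test of the difference between classes was run. By single snRNA, Snord genes exceeded the prediction with U6, at 1.65 in ES-1 (1.41 to 1.93), 2.57 in ES-2 (2.02 to 3.23) and 5.89 with indirect cross-linking (54 read pairs against 9.17).

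**Figure D3:**
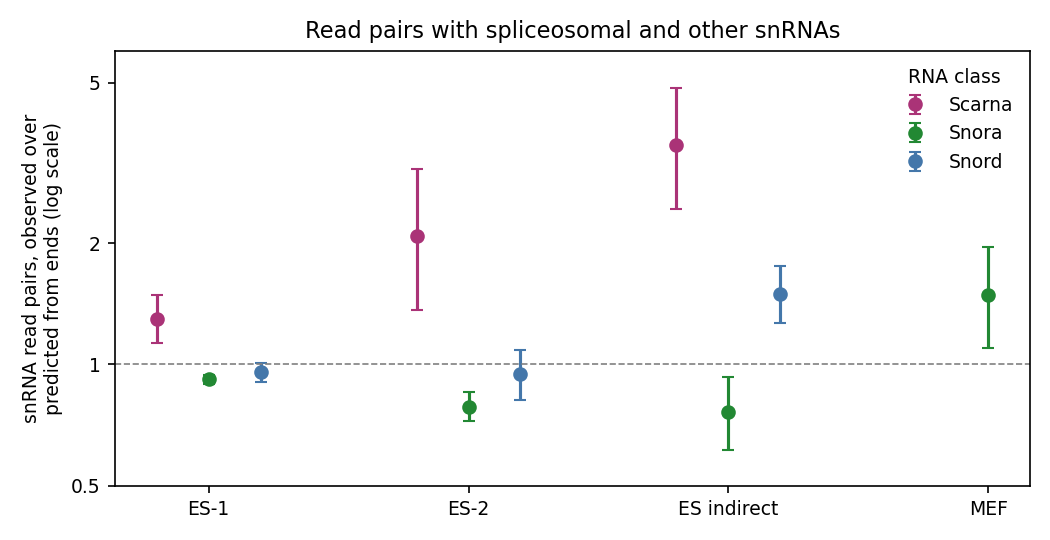
Observed over predicted read pairs with snRNAs (y axis, log scale) for Scarna, Snora and Snord genes in each library (x axis), with exact Poisson 95% intervals of the observed count. Scarna points lie at 1.30, 2.08 and 3.50 in the libraries of ES cells, above the Snora and Snord points, and Scarna and Snord have no point in MEF because 0 read pairs were seen.

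The excess in ES depended on the collapse, on SCARNA6 and on the prediction. A duplicate that was placed on another copy of U1 keeps other coordinates, so read pairs were also collapsed by name and fragment length at ends in multi-copy RNAs, a choice made after seeing the data. The ratio was then 1.12 in ES-1 (0.943 to 1.33) and 1.92 in ES-2, together 1.19 (1.02 to 1.39), and 3.56 in ES indirect (2.44 to 5.03). The interval of ES-1 then overlapped that of Snord genes (0.893 to 1.01) but still lay above that of Snora genes (0.863 to 0.915). Without SCARNA6, also a choice made after seeing the data, ES had 1.11 (0.945 to 1.30) and ES indirect 3.41. SCARNA6 was left out for its count, the highest with snRNAs in ES-1, so a lower ratio there was built into the choice. With a prediction from all collapsed read pairs, ribosomal and self pairs included, ES gave 1.05 (0.918 to 1.19) and ES indirect 2.09. Other choices raised the ratio. With genome-matching scaRNA read pairs only it was 1.59 in ES (1.39 to 1.80), 3.30 in ES-2 and 4.63 in ES indirect, and with every line counted it was 3.34 in ES-2. The ratio in ES indirect was thus above 1 under each of these, while the interval in ES held 1 with the prediction from all collapsed read pairs and without SCARNA6.

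U1 had the most scaRNA read pairs of the snRNAs in both ES assays, and U2 in ES indirect. U1, which recognises the start of an intron, gave 121 scaRNA read pairs in ES-1 against 72.2 predicted (1.68, 1.39 to 2.00) and 11 in ES-2 against 4.72 (2.33, 1.16 to 4.17). In ES indirect it gave 8 against 4.92 (1.63, 0.702 to 3.20). With the copy-aware collapse U1 had 60 against 48.7 in ES-1 (1.23, 0.940 to 1.59) and 9 against 4.43 in ES-2 (2.03, 0.928 to 3.85), so that both intervals held 1, while their sum did not (69 against 53.2, ratio 1.30, 1.01 to 1.64). U2, which recognises the branch point, gave 43 in ES-1 against 41.0 (1.05, 0.759 to 1.41) and 4 in ES-2 against 3.50. In ES indirect U2 gave 16 against 1.91 (8.39, 4.79 to 13.6) and, copy-aware, 14 against 1.67 (8.40). The Snora and Snord genes had 21 read pairs with U2 each in ES indirect, at ratios of 0.885 and 1.05.

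U5, which holds the exons together, had 19 scaRNA read pairs in ES-1 against 11.3 (1.68, 1.01 to 2.62), 1 in ES-2 and 4 in ES indirect against 0.746 (5.36, 1.46 to 13.7). Copy-aware, the interval of U5 in ES-1 held 1 (17 against 10.3, 0.963 to 2.65). U4 had 8 against 9.78 in ES-1, 4 against 0.649 in ES-2 (6.16, 1.68 to 15.8) and 2 in ES indirect. U6, the catalytic snRNA, lay below prediction in ES-1 with 4 against 11.4 (0.350, 0.0954 to 0.896), but copy-aware the interval held 1 (3 against 7.68, 0.0806 to 1.14), and U6 had 3 in ES-2 and 0 in ES indirect. U12, of the minor spliceosome, had 4 in ES-1 against 5.26, 0 in ES-2 and 2 in ES indirect against 0.154 (ratio 13, interval 1.57 to 47.0). U7, which works on histone transcripts, had 1 in ES indirect and 0 in ES-1 and ES-2. U11, U4atac and U6atac had 0 scaRNA read pairs in every library, with at most 1.25 predicted. The other snRNA read pairs, 12 in ES-1, 3 in ES-2 and 2 in ES indirect, carried a name of type snRNA that is only that of a genomic clone.

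By gene, the contacts with U1 in ES-1 gathered on SCARNA6. It was joined to U1 in 55 read pairs of ES-1 and 6 of ES-2, with none in ES indirect or MEF. The 55 came from 18 distinct SCARNA6 fragments, and 4 of these fragments gave 30. Counted copy-aware, SCARNA6 had 18 read pairs with U1 in ES-1 and 4 in ES-2. Next came Scarna13 and Scarna2 with 12 read pairs with U1 each in ES-1 (7 and 9 copy-aware), SCARNA16 with 9 (6) and Scarna10 with 8 (4). SCARNA16, a guide for U1, had 3 more in ES indirect, all 3 distinct, and Scarna10 had 3 there.

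With U2, Scarna13 led in ES-1 with 17 read pairs, 10 of them distinct copy-aware, and 9 of the 17 Scarna13 fragments reached the last 6 bases of the gene. Scarna13 had 1 read pair with U2 in ES-2 and 0 in ES indirect. Scarna2 had 6 in ES-1, 0 in ES-2 and 6 in ES indirect. Scarna8 had 4 in ES indirect, 3 copy-aware, and 0 in ES-1 and ES-2, and Scarna9 had 1 each in ES-1 and ES indirect. Scarna2 and Scarna8 together thus gave 10 of the 16 U2 read pairs of ES indirect. Scarna17 had its few snRNA contacts with U12 (2 in ES indirect) and U4 (2 in ES-2) besides 1 with U1 in each ES assay and 1 with U2 in ES-1. Scarna10 had 3 with U5 in ES-1 and 2 in ES indirect. These counts are too small to rank the pairs.

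**Figure D4:**
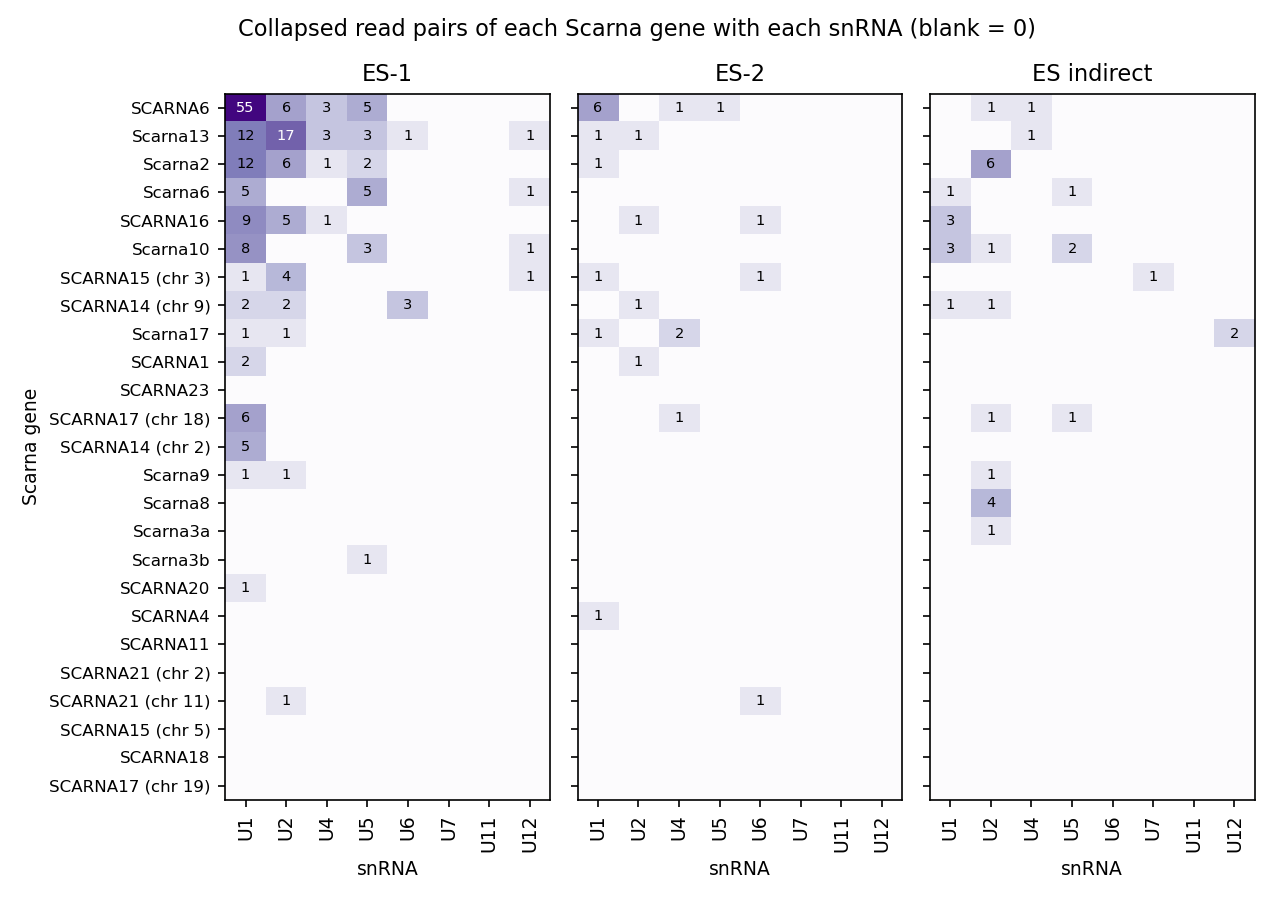
Collapsed read pairs of each of the 25 Scarna genes (rows) with each snRNA (columns) in ES-1, ES-2 and ES indirect, with darker cells for more read pairs and blank cells for 0. SCARNA6 with U1 stands out in ES-1 (55) and leads ES-2 (6), while Scarna2 with U2 (6) and Scarna8 with U2 (4) lead ES indirect. MEF is not drawn, since it had none.

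Where the fragments lay in the RNAs was then compared with the runs that can pair. Over 23 Scarna genes and 1 copy each of U1, U2, U4, U5 and U12, 115 longest Watson-Crick runs were found, of which 6 reached 10 bases. In C/D box guides the pairing stretch stands before a D box, with the letters CTGA, which followed within 8 bases in 16 of the 115 runs (13.9%) and in 4 of the 6. On the strand of the gene, the only one searched, CTGA is in 4.80% of all windows of 8 bases of these genes. Among equally long runs the first in the scaRNA was taken, and ties were common for short runs. Genes of 1 name were counted apart. The shares of 13.9% and 4.80% are therefore not like counts, and their difference was not tested. The runs of 10 or more were SCARNA6 with U4, SCARNA18 with U4, Scarna2 with U2, Scarna9 with U2, Scarna6 with U5 and a SCARNA17 gene on chromosome 19 with U12. A run is a match of letters and not an observed pairing.

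Few ligated fragments covered these runs. Of the 12 Scarna2 read pairs with U2, 2 had a Scarna2 fragment that touched the capitals printed above and 2 had a U2 fragment that touched bases 22 to 31, and none had both. The Scarna2 fragments of ES indirect lay between bases 72 and 351 and those of ES-1 between 140 and 414. Of 5 read pairs of SCARNA6 with U4, 2 touched the run on the side of SCARNA6, 2 on the side of U4 and 1 on both. Of 6 Scarna6 fragments joined to U5, 1 touched the run, and of the 4 whose U5 end could be placed, 3 touched it on U5. Of 2 Scarna9 fragments joined to U2, 1 touched the run, and no U2 fragment of Scarna9 did. The 4 Scarna8 fragments with U2 lay between base -2, just before the gene, and base 116, and their U2 fragments between 53 and 168. In MARIO the RNA is cut before ligation and again after it, so a fragment need not reach the stretch that was held. Of 247 fragments of the 5 snRNAs, 210 could be aligned to the copy used, and the others were left out of positions only.

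Single pairs of RNAs were tested against all others in the same library, or in both ES assays put together (ES merged), by a one-sided Fisher's exact test with Benjamini-Hochberg adjustment over all observed pairs. Calls needed 3 or more read pairs and an adjusted p below 0.05. The unit is the read pair, so the p-values speak of these libraries and hold no error between replicates. The test counted the RNA1 and RNA2 ends of an RNA together, whereas the predicted numbers keep them apart. The number that the test expects is thus not the predicted number printed beside its p-value, and is as high or higher. In ES merged 24 of 3529 pairs with a scaRNA were called (0.680%), against 0.895% of all 227775 pairs. ES-1 gave 21 of 2849 (0.737%) against 1.09% of all its pairs, ES-2 gave 7 of 890 (0.787%) against 0.719%, ES indirect gave 4 of 248 (1.61%) against 2.54%, and MEF gave 0 of 190 against 0.842%. The share of scaRNA pairs called was near this background or below it. In MEF, 4 of the 190 had the 3 read pairs that a call needs. With adjustment over every possible pair of names, a choice made after seeing the data, 7 calls of ES merged and 1 of ES indirect remained of that list, since this alternative only raises each p. The adjustment over observed pairs leaves out pairs that were never seen and is the more lenient. In a simulation on the ends of ES-2 with partners drawn at random it still called 151 of 111877 pairs, against 782 of 108723 in ES-2 itself. The adjustment over every possible pair made none there. Some calls with the lenient adjustment are thus made even where partners are random.

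The ES merged pair with most read pairs was SCARNA6 with U1, with 61 against 12.1 predicted (Fisher's exact test with Benjamini-Hochberg adjustment, adjusted p = 9.25e-08). The prediction of ES merged is made from the ends of both assays in 1 pool, which differ in composition, and it lies below that of ES-1 alone. The pair was called in ES-1 (55 against 14.2) and in ES-2 (6 against 0.704), in neither with adjustment over every possible pair, which it passed in ES merged. However, copy-aware it had 22 read pairs and an adjusted p of 0.246, so that the call was lost. SCARNA15 with Snord89 had 10 read pairs from ES-1 plus 3 from ES-2, was called in each, and reached 13 against 0.118 in ES merged (same exact test, adjusted p = 1.03e-15, and the same count copy-aware). Snord89 is a C/D box snoRNA and SCARNA15 an H/ACA scaRNA. Of the 13 SCARNA15 fragments, 12 ended within 5 bases of the end of the gene, while the Snord89 fragments had 11 different starts. Their longest antisense run, bases 50 to 57 of SCARNA15 with 4 to 11 of Snord89, is printed in capitals above.

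By kind of partner, the 24 calls of ES merged joined scaRNAs to 5 H/ACA snoRNAs, 3 C/D box snoRNAs, 6 scaRNAs, 7 protein-coding genes, U1 and 2 repeats. None of the H/ACA calls held with adjustment over every possible pair, and of the C/D box calls only SCARNA15 with Snord89 did. SCARNA6 with SNORA74 had 14 read pairs, all in ES-1, against 2.74 (Fisher's exact test, adjusted p = 0.0170), from 14 different SCARNA6 starts. Scarna6 with SNORA63 had 4 from ES-1 plus 7 from ES-2 against 1.68 (exact test, adjusted p = 0.0160) and was called in ES-2 alone but not in ES-1 alone. SCARNA23 with Snora64 had 7, all in ES-1, against 0.988 (exact test, adjusted p = 0.0279), and SCARNA4 with SNORA9 had 1 and 3 against 0.436 (adjusted p = 0.0234). SNORA74, SNORA63 and SNORA9 each name more than 1 annotated gene, which can share sequence, and their copies were not compared. The SNORA63 called here is not the SNORA63 gene among the leading partners below. Scarna9 with SNORD63, a C/D box snoRNA, had 5 in ES-1 against 0.0816, but all 5 shared 1 SNORD63 fragment. Scarna9 with the repeat (CA)n had 8 in ES-1, of which 4 remained copy-aware (adjusted p 4.59e-04). The 14 calls with 3 read pairs each hold all 7 with protein-coding genes. Of these, SCARNA16 with Trmt61a and Scarna9 with Dnajc13, named here because of their values, held with adjustment over every possible pair (Fisher's exact test, adjusted p = 0.0229 and 0.0226), and all their read pairs were from ES-1.

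Called pairs of scaRNA genes that share a name are uncertain, since such genes can share sequence. The 2 SCARNA14 genes were joined in 15 read pairs of ES-1, 7 of ES-2 and 3 of ES indirect, 22 against 0.0395 in ES merged (Fisher's exact test, adjusted p = 9.97e-45). Of the 25 fragments named for the copy on chromosome 2, 16 had fewer mismatches when set against the copy on chromosome 9, 7 had equal numbers and 2 had fewer at chromosome 2. Most of these fragments thus matched the copy on chromosome 9 better than the copy they were named for, and in the 7 with equal numbers the copies cannot be told apart. Pairs of the 2 SCARNA15 genes (3 read pairs) and of 2 SCARNA17 genes (3) were also called, the first of them not with adjustment over every possible pair, and their copies were not compared. SCARNA6 with Scarna6, which differ in sequence, had 6 in ES-1 against 0.543 (exact test, adjusted p = 0.0142). Read pairs of 2 different Scarna genes numbered 144, 16, 15 and 0 in the order of the libraries, and SCARNA17 with its neighbour Scarna17 accounted for 85, 6 and 10 of them.

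In ES indirect the 4 calls were Scarna2 with U2 (6 against 0.345, adjusted p = 0.00242 by the same exact test), Scarna8 with U2 (4 against 0.107, adjusted p = 0.00237), SCARNA16 with U1 (3 against 0.243, adjusted p = 0.0307) and the SCARNA14 genes. Copy-aware, 5, 3 and 3 read pairs were left and each stayed called. However, all but 1 of the 4 Scarna8 read pairs held the same U2 stretch, bases 145 to 168. Their Scarna8 fragments started at base -2 or 0 and ended at 116. The copy-aware 3 of Scarna8 rest on these starts being counted apart. Of these 4 only the SCARNA14 pair held with adjustment over every possible pair. In 3 of the 4 the snRNA is one that the scaRNA is known to guide, and no number expected for such pairs was computed. Other guide pairs were not called there, with 0 read pairs of Scarna13 with U2, 1 of Scarna9 with U2 and 2 of Scarna10 with U5. In ES merged none of these 3 was called: Scarna2 with U2 had 6 read pairs, Scarna8 with U2 had 0 and SCARNA16 with U1 had 9.

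The partners with most read pairs in the ES assays were mostly abundant RNAs near their predicted number, here the sum of the predictions for each assay and not that of the pooled ends. Snora81 had 166 read pairs against 167 (ratio 0.991), Snora73a 83 (1.01), Snora73b 82 (0.964), Snora33 79 (1.04), Snora44 68 (1.03), SNORA63 58 (0.946) and SNORA1 50 (1.17). This SNORA63 is another gene than the one called with Scarna6. U1 lay above it with 132 against 76.9 (1.72, 1.44 to 2.04), with the limit on copies given above. The low-complexity name GC_rich had 61 (0.827). Dnahc7b, a dynein gene, lay below it with 60 against 82.7 (0.725, 0.553 to 0.933), and 91.8% of its fragments held a 20-base run that was common in ribosomal fragments. Such runs were found in 5.22% to 13.5% of the partner fragments of a library.

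Few read pairs joined scaRNAs to their host genes or to the transcripts of Cajal body proteins. Of the host genes, Chd3 with its SCARNA21 had 11 read pairs from ES-1 and 1 from ES indirect, and 5830418K08Rik with Scarna9 had 5 and 2. ES-2 and MEF had 0 read pairs of a scaRNA with its host. The list of 15 genes for Cajal bodies and scaRNA proteins, such as Coil (the scaffold), Wrap53, Dkc1 (the pseudouridine synthase), Fbl (the methyltransferase) and Smn1, had 349, 408, 774 and 99 ends in the order of the libraries. Of these, 1 was a scaRNA read pair in ES-1, with Gar1, against 1.45 predicted from all read pairs, and 1 in ES-2, with Shq1, against 0.444. ES indirect and MEF had 0, against 0.329 and 0.0623, so these counts were near the prediction. Terc, the telomerase RNA that also visits Cajal bodies, had 0 ends in every library, so its contacts could not be measured.

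Read pairs within 1 scaRNA were most common in ES indirect. They made up 41.9% of scaRNA read pairs in ES indirect (38.8 to 45.0), 12.8% in ES-1 (12.3 to 13.3), 7.98% in ES-2 (7.06 to 9.0) and 3.44% in MEF (2.096 to 5.60), with a mean of 10.4% ± 3.38 in ES (SD, n = 2). Snora genes had 3.18%, 2.57%, 14.7% and 2.54% and Snord genes 1.33%, 3.08%, 5.52% and 1.98% in the order ES-1, ES-2, ES indirect, MEF. ScaRNAs as a class lay above both classes in each library, but in MEF the interval of the scaRNA share held the value of Snora genes. Not every gene did so. In ES-1 SCARNA15 on chromosome 3 (2.17%), SCARNA14 on chromosome 9 (1.03%), SCARNA23 (3.00%), SCARNA20 (2.27%), SCARNA11 (2.50%) and SCARNA4 (0%) lay below Snora genes. So did SCARNA1 (2.71%), SCARNA21 on chromosome 2 (1.69%) and SCARNA14 on chromosome 2 (0%). SCARNA18, SCARNA15 on chromosome 5 and SCARNA17 on chromosome 19 had 0% as well, on few read pairs. The SCARNA14 shares leave out the 15 read pairs that joined its copies, whose naming is uncertain as described above. Other short genes lay above, such as Scarna3a (10.8%), Scarna8 (5.39%) and Scarna9 (7.78%). SCARNA6, Scarna13, Scarna2, Scarna6 and Scarna10 gave 749, 382, 301, 283 and 197 of the 2231 self pairs of ES-1. The part of gene length was not tested. The rise in ES indirect was seen in each leading gene: SCARNA6 had 71.6% there against 20.6% in ES-1, Scarna13 63.7% against 13.1%, Scarna2 45.9% against 12.2%, Scarna6 54.8% against 20.96% and Scarna10 48.5% against 25.9%. In ES-2 the same genes had 15.2%, 10.6%, 5.88%, 12.6% and 14.4%.

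The share also differed between sequencing runs of 1 library. It was 18.7% and 6.40% in the 2 runs of ES-1, 9.23% and 6.08% in those of ES-2, 52.8% and 26.4% in those of ES indirect and 1.28% and 21.7% in those of MEF (5 of 390 and 10 of 46 read pairs). The median RNA1 fragment of scaRNA read pairs was 68 and 59 nt in ES-1, 40 and 39 nt in ES-2, 90 and 54 nt in ES indirect and 26 and 17 nt in MEF. The run with the larger self share thus had the longer fragments in ES-1 and ES indirect, nearly equal ones in ES-2 and the shorter ones in MEF. The part of fragment length in the self pairs was not tested. Within each run ES indirect stayed above ES-1 and ES-2. Counting every line gave 68.1% in ES indirect and 33.1% in ES, so that self pairs were repeated more often than other scaRNA read pairs.

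Self pairs showed a preferred order along the RNA. In ES-1, RNA1 lay wholly 5′ of RNA2 in 749 self pairs and wholly 3′ in 426, and 1056 overlapped. Among pairs that did not overlap, RNA2 came first in 36.3% in ES-1 (33.6 to 39.0) and 27.4% in ES indirect (22.4 to 33.1) but 63.9% in ES-2 (55.9 to 71.3). The ES assays therefore went opposite ways. Their fragments were a median of 31 nt apart in ES-1, 30.5 nt in ES indirect and 65 nt in ES-2. Both fragments were on the strand of the gene in at least 96.2% of self pairs in the libraries of ES cells, against 33.3% of the 15 in MEF.

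The genes differed in this order. Scarna2 had RNA2 first in 15.3% of its pairs without overlap in ES-1 and 8.82% in ES indirect, and Scarna13 in 16.5% and 31.4%. In ES-2 both had higher values, 35.0% for Scarna2 (7 of 20) and 55.6% for Scarna13 (10 of 18). SCARNA6 had 41.4% in ES-1, 64.7% in ES-2 and 9.30% in ES indirect. Scarna9 (19 of 19) and Scarna3a (20 of 20) had RNA2 first in every such pair of ES-1. Scarna10 joined its ends: in ES-2, 19 of 21 such pairs had RNA2 first, with a median gap of 233 nt in an RNA of 325 bases. In ES-1 it had 50 of 130 in that order and 38 pairs with a gap of 100 nt or more, and in ES indirect 24 of 47. For its structure analysis the study dropped same-gene read pairs without linker sequence or in the order of an intact fragment. That filter was not applied here. In pairs with RNA1 first or with overlap, an intact fragment read from both ends therefore cannot be told apart from ligation. Pairs with RNA2 first are not in the order of an intact fragment. In all of them, ligation within 1 molecule and between 2 molecules of the same gene cannot be told apart.

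**Figure D5:**
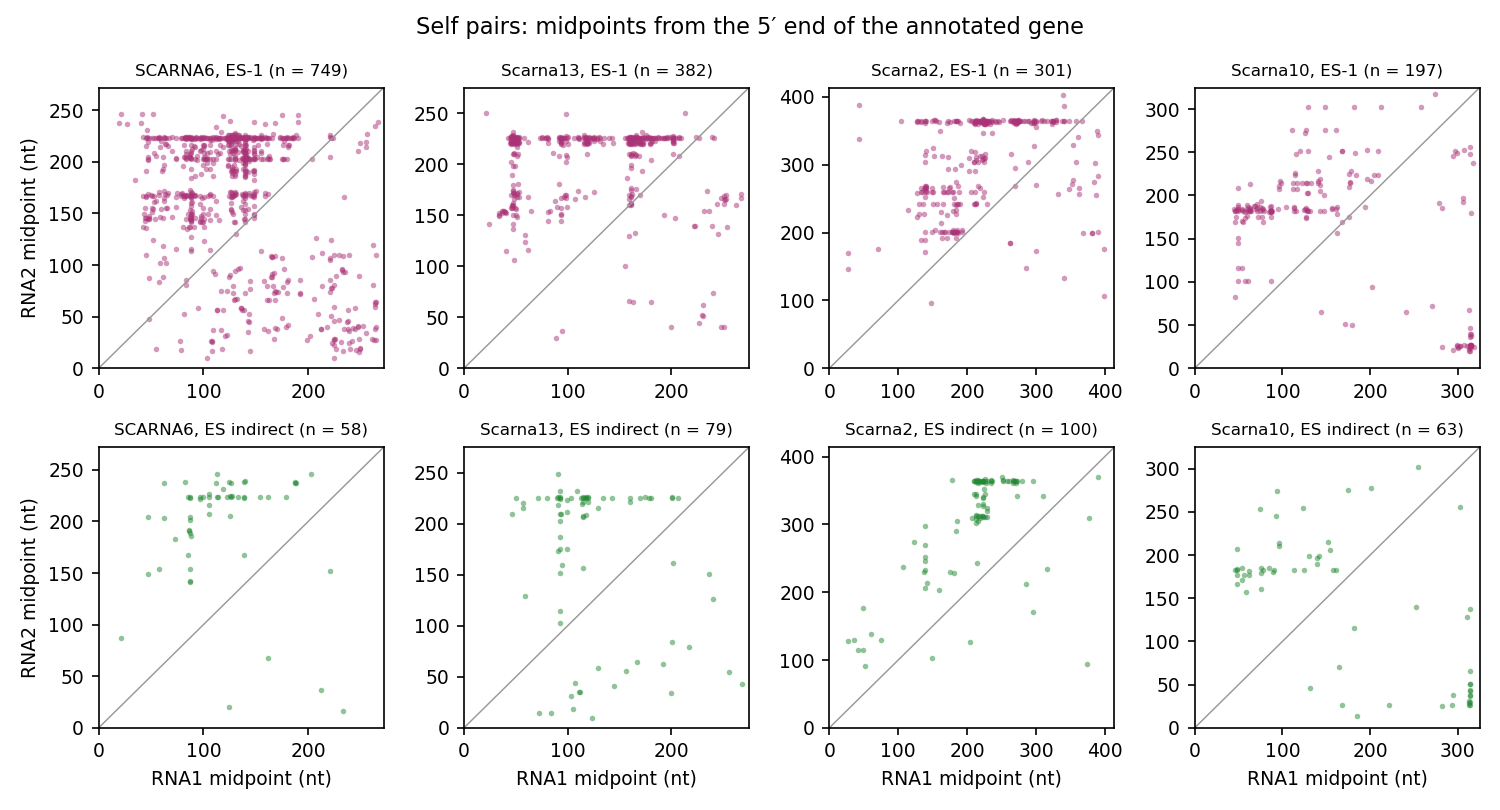
Midpoint of RNA2 (y axis, nt from the 5′ end of the annotated gene) against the midpoint of RNA1 (x axis, nt) for self pairs of SCARNA6, Scarna13, Scarna2 and Scarna10, in ES-1 (upper panels, 749, 382, 301 and 197 pairs) and ES indirect (lower panels, 58, 79, 100 and 63). Points above the diagonal have RNA1 on the 5′ side. Most points lie above it and in bands at fixed RNA2 places in both libraries, and Scarna10 has a second group at the lower right that joins its 3′ end (RNA1) to its 5′ end (RNA2).

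The position of the scaRNA in the chimera differed as well. ScaRNA ends were RNA1 in 68.4% and 61.6% of cases in the ES assays (mean 65.0% ± 4.85, SD, n = 2), 48.3% in ES indirect and 41.5% in MEF. The predictions used here take this into account, since they were made from RNA1 and RNA2 ends separately, but the exact test took both together.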

How the data were processed

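Read pairs were taken as the authors deposited them, 1 a line with place, strand, sequence, type and name of both fragments and no other measured value. According to the study's methods, duplicates with equal barcodes were removed and fragments placed uniquely on mm9 (NCBIM37). The submitters' processing notes list TopHat2 2.1.1. Reads without a kept molecular identifier are not independent molecules. Names were used as deposited, with GENCODE vM1 for gene bounds. Classes were set in the order ribosomal, unannotated, same RNA, within 2000 bases, between RNAs. Predicted counts are products of RNA1 and RNA2 ends over all between-RNA read pairs. Python 3.11.15, pandas 2.3.3, numpy 2.4.6 and scipy 1.17.1 were used, and the pair test was checked on simulated data, where planted pairs were found but random partners also gave calls under adjustment over observed pairs. Named were Scarna genes with at least 10 read pairs, the 10 leading partners, up to 10 called pairs, 10 spliceosomal and histone snRNAs, host genes and a Cajal body list. Genes and lists were chosen with earlier results of these data known. Alternatives varied the collapse, strand, fragment length, genome match, prediction, sequencing run and ES assay.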

Additional observations from a re-analysis of the deposited data

Results flagged for a closer look

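Outside the libraries described, the deposited whole-brain libraries held a few lines with a scaRNA name, above what a count of 0 would allow. The first held 22 of 1045814 lines, or 0.00210% (95% Wilson interval 0.00139 to 0.00319), where 3 lines would be 0.000287%. The second held 24 of 1114447 lines, or 0.00215%, where 3 lines would be 0.000269%. The lines were counted by deposited name and not collapsed.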

How the results depend on the processing

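Of 219 recomputed values, 129 moved within the error or, for counts of calls, by at most 1.5 times. Another 62 moved beyond the error, and 18 counts fell and 9 rose beyond 1.5 times. In 1 case a ratio crossed 1: that of scaRNAs with snRNAs in ES-1, 0.990 with a prediction from all collapsed read pairs. The error was the counting interval for a single library and the SD of both assays for ES. The 129 therefore include ES ratios whose interval held 1. With every line counted, the scaRNA share was 0.954% in ES and 0.0740% in ES indirect, the self share 33.1% and 68.1%, and the called pairs 334 and 16. The share of ES indirect was 0.0531% with genome-matching read pairs only and 0.0921% with the copy-aware collapse (chosen after seeing the data), which also raised ES-1 to 1.14% and ES-2 to 0.365%. Coordinates rounded to 5 bases gave self shares of 8.34% in ES and 38.1% in ES indirect. For ES indirect the self share was 47.3% without short fragments and linker pieces and 46.9% with genome matches only. By sequencing run it was 17.1% and 6.36% in ES and 52.8% and 26.4% in ES indirect, and the snRNA ratio of ES indirect was 5.05 and 2.34 (2.09 with a prediction from all read pairs). Leaving out either ES assay gave scaRNA shares of 0.240% to 0.757%, self shares of 7.98% to 12.8%, snRNA ratios of 1.30 to 2.08 and 7 to 21 called pairs. Calls in ES merged numbered 74 with at least 2 read pairs, 9 with at least 5, 7 with adjustment over every possible pair (chosen after seeing the data), and 13 and 11 by run, and in ES indirect 13, 1, 1, 2 and 2. Without ribosomal-like partners 23 and 4 were called. The causes of these differences were not tested. No paired analysis was possible because, brain aside, ES alone has more than 1 independent sample. Depth limits MEF most, where 436 scaRNA read pairs were found.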
